A study of Mus musculus with 3 samples.

Results

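The fibrous tissue of the heart, that is its valves and the connective cells between muscle fibres, is marked by a small set of genes, and 10 of them are described here: Postn, Fbln1, Fbln2, Lum and Dcn, which encode matrix proteins, Pdgfra, which encodes a growth factor receptor, and Sox9, Scx, Twist1 and Prrx1, which encode transcription factors. They were chosen by name as genes of valve and interstitial mesenchyme, by a rule that uses no measured value, although earlier results of these data were known when the list was drawn up. All 10 were on the arrays, among 27632 gene names, and were read by 20 of 41174 gene probes of 60 bases each. Hearts of C57BL/6 mouse embryos of stage E15.5 (in days of embryonic life) were dissected, and each of 3 arrays compared 1 pool of 2 Lrrc10-/- hearts, labelled with the red dye Cy5, with 1 pool of 2 wild-type (Lrrc10+/+) hearts, labelled with the green dye Cy3. Per the study's methods the Lrrc10-/- line had been crossed back to C57BL/6, and the pooled hearts were those of littermates. The dyes were not exchanged, so genotype and dye cannot be told apart. For the wild-type channel an adult age is entered beside E15.5. The embryonic age, which the other entries give, was taken.

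Valve mesenchyme arises when endocardial cells of the cushions lose their epithelial character and move into the jelly below them, and interstitial fibroblasts descend mainly from the epicardium. Twist1, Sox9 and Prrx1 act in such mesenchyme as DNA-binding factors, and Scx is a factor of tendons and of tendon-like valve cords. The matrix that these cells lay down holds periostin (Postn), the fibulins (Fbln1, Fbln2) and the collagen-binding proteoglycans lumican (Lum) and decorin (Dcn). LRRC10 itself is a protein of heart muscle cells, so the question put to these genes is whether transcripts of the other tissue of the heart differed where a muscle gene was deleted.

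Lrrc10, the targeted gene, was examined first, because it checks the labels. Its single probe gave processed signals of 6294, 8521 and 12637 (Cy5) against 281, 237 and 200 (Cy3) on replicates 1, 2 and 3. The signal was thus higher in the channel labelled Lrrc10-/- on 3 of 3 arrays, with log2 ratios of 3.99, 4.78 and 4.45 and a mean of 4.41 ± 0.40 (SD, n = 3; limma, adjusted p = 0.00039). This goes against the label. The channel is therefore called "the channel labelled Lrrc10-/-" throughout, and every direction given here would turn if the labels of the channels were exchanged. No source used here says which part of the gene was deleted relative to the probe.

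Each ratio is Cy5 over Cy3 on the log2 scale, so a value of 1 is a doubling in the channel labelled Lrrc10-/-. Of the 41174 gene probes, 28328 were bright enough to be tested. By limma with Benjamini-Hochberg adjustment, 395 of them were higher and 1 was lower in that channel at an adjusted p under 0.05, or 1.40% in all. The share of gene spots well above background was 88.9%, 82.4% and 63.9% (Cy5) against 87.2%, 93.2% and 69.3% (Cy3) on the 3 replicates in order. Whole hearts hold many cell types, and in such bulk RNA fewer cells of a type and less RNA per cell cannot be told apart.

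The sequences of 8 of the 20 probes are shown because results below turn on which stretch of a transcript was read. They are the deposited probe sequences, written 5′ to 3′ on the transcribed strand, with positions on mm9 as deposited. Capitals mark whole codons of the coding frame. Lower case marks the bases outside these codons, stop codons included. Of the probes for library clones that carry no protein product in their description, the first 30 bases are shown, all in lower case.
Prrx1 A_52_P483713, in the homeobox, chr1:165191982-165192041, minus strand: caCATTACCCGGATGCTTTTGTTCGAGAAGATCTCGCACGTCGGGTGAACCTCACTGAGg
Prrx1 A_51_P209778, downstream of it, chr1:165187974-165188033, minus strand: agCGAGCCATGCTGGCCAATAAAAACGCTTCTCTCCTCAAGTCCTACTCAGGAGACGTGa
Prrx1 A_51_P262972, the hypothalamus clone AK038736, chr1:165183205-165183264, minus strand: ctgaaaattttcttagatgacacacacata
Prrx1 A_51_P209771, at the end of a coding frame, chr1:165178384-165178443, minus strand: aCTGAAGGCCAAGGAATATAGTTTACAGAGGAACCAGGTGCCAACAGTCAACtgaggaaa
Dcn A_52_P252726, the neonatal kidney clone AK052759, chr10:96943347-96943406, plus strand: gagggatttacagattcacttcatacatac
Dcn A_51_P334104, at the end of the coding frame, chr10:96980233-96980292, plus strand: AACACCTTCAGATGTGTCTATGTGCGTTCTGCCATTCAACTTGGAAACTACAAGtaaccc
Pdgfra A_52_P264283, coding, chr5:75559613-75559672, plus strand: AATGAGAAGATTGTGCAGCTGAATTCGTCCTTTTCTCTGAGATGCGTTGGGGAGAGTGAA
Sox9 A_51_P451606, coding, chr11:112644310-112645162, plus strand: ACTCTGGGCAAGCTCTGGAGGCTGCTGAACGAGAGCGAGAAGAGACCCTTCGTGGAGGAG

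The Sox9 probe takes up 853 bases of the genome for its 60 bases, so it crosses an intron. The codons in capitals number 19 in the first and second Prrx1 probes, 17 in the last Prrx1 probe, 18 in the Dcn probe and 20 each in the Pdgfra and Sox9 probes. The Dcn probe ends past the stop codon taa and the last Prrx1 probe past tga.

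None of the 10 genes passed the test. Of the 20 probes, 19 were tested and 0 had an adjusted p under 0.05 by limma, beside 1.40% of all probes tested. At an unadjusted p under 0.05 there were 2 of 19, a Dcn probe that was lower and a Prrx1 clone probe that was higher, against 13.3% of all probes. The methods' t-test gave 4 of 19 before adjustment, but the share of all probes by that test was not computed, so this count has no background. After adjustment it gave 0, as it did over all probes. A log2 ratio of 1 sign on all 3 arrays was seen in 7 of the 19, 3 above and 4 below 0, beside 36.6% of all probes tested. With 1 probe per gene, the one of highest mean intensity, the mean was above 0 for 5 genes and below 0 for the other 5. Their median was -0.03, against 0.02 over all 16424 named genes, and by array it was -0.03, -0.05 and -0.15. This median moved to 0.01 when replicate 3 was left out and to -0.14 when replicate 1 was. The 95% intervals held 0 for 9 of the 10 genes and reached at most from 0.602-fold to 1.40-fold, so larger changes than these lie outside the intervals of all 10 representative probes. None of the 20 probes was saturated and none was marked as non-uniform.

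**Figure D1:**
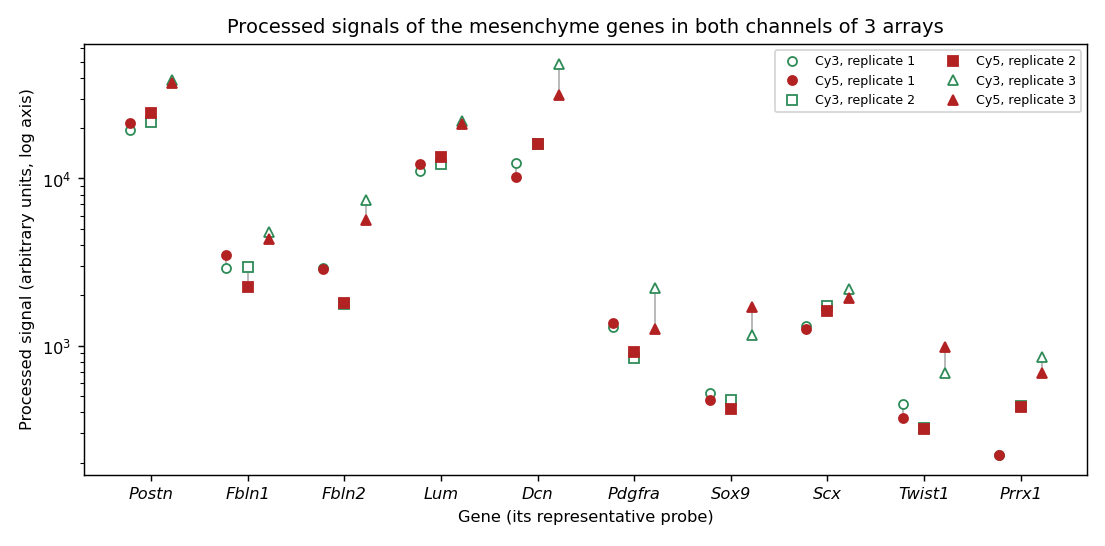
Processed signal (vertical, arbitrary units, log axis) of the representative probe of each of the 10 genes on 3 arrays. Filled red symbols are Cy5, labelled Lrrc10-/-, open green symbols are Cy3, wild type, and a grey line joins the channels of 1 array. The pairs of symbols lie close together, and the widest gaps, of Dcn, Pdgfra and Sox9, are on replicate 3. Heights of different genes come from different probes and are not comparable.

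Among the matrix genes, periostin was read by 1 probe (A_51_P489192, chr3:54194483-54194542) with processed signals of 21433, 24758 and 37411 (Cy5) against 19544, 21669 and 38591 (Cy3). Postn log2 ratios were -0.05, 0.15 and 0.07, averaging 0.06 ± 0.10 (SD, n = 3), with a 95% interval from 0.861-fold to 1.26-fold. The values lay on both sides of 0, and all were small. A second probe that the files name A630052E07Rik (A_51_P469817, chr3:54184952-54185011) belongs to Postn by synonym and lies outside the rule. It was dim, with Cy5 signals of 27.1, 42.2 and 15.4, and had log2 ratios of -0.17, -0.15 and -0.04.

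Lumican, a collagen-binding proteoglycan, was likewise near 0. Lum (A_51_P167527, chr10:97035210-97035269) had signals of 12136, 13458 and 21149 (Cy5) against 11035, 12208 and 21925 (Cy3), and log2 ratios of -0.01, 0.15 and 0.06. Its mean was 0.07 ± 0.08 (SD, n = 3), with an interval from 0.868-fold to 1.26-fold and an adjusted p of 0.85 by limma. As with Postn, replicate 2 was the highest and replicate 1 the lowest.

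Decorin, the close relative of lumican, stood farthest from 0 among the 10 representative probes. Dcn (A_51_P334104, the coding probe shown above) had signals of 10235, 16042 and 31365 (Cy5) against 12420, 16164 and 48612 (Cy3). The loess-normalized log2 ratios were -0.54, -0.22 and -0.55, below 0 on 3 of 3 arrays. The mean was -0.44 ± 0.19 (SD, n = 3), or 0.739-fold with an interval from 0.602 to 0.907, with limma's p of 0.0097 before and an adjusted p of 0.21 after Benjamini-Hochberg adjustment. The scanner software's own log2 ratios were -0.28, -0.01 and -0.63, which differ from these values in both background correction and normalization, and on replicate 2 the software put Dcn near 0. The clone probe named Dcn (A_52_P252726), 36.9 kb upstream, gave 0.04, -0.14 and -0.19 with Cy5 signals of only 39.6, 75.5 and 8.11, and its Cy5 signal was well above background on 2 of 3 arrays.

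Fibulin-1 was read by a pair of probes whose starts lie 144 bases apart. The brighter one, A_52_P588483 (chr15:85115998-85116057), had signals of 3506, 2232 and 4330 (Cy5) against 2906, 2948 and 4779 (Cy3), and log2 ratios of 0.45, -0.23 and -0.08. The other, A_51_P154417 (chr15:85115854-85115914), had log2 ratios of -0.11, -0.23 and -0.19. They gave the same value on replicate 2 and differed in sign on replicate 1, where the brighter probe alone was high. The mean of the brighter Fbln1 probe was 0.04 ± 0.36 (SD, n = 3) and that of the other -0.18 ± 0.06, with adjusted p-values of 0.93 and 0.55 by limma. The software's ratios put the brighter probe's mean at -0.09.

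Fibulin-2 was level on the first arrays and lower on the last. Fbln2 (A_52_P590535, chr6:91222118-91222177) had signals of 2875, 1795 and 5634 (Cy5) against 2907, 1786 and 7478 (Cy3). Its log2 ratios were -0.01, 0.09 and -0.36, averaging -0.09 ± 0.24 (SD, n = 3), with an adjusted p of 0.82 by limma. Without replicate 3 the mean was 0.04.

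**Figure D2:**
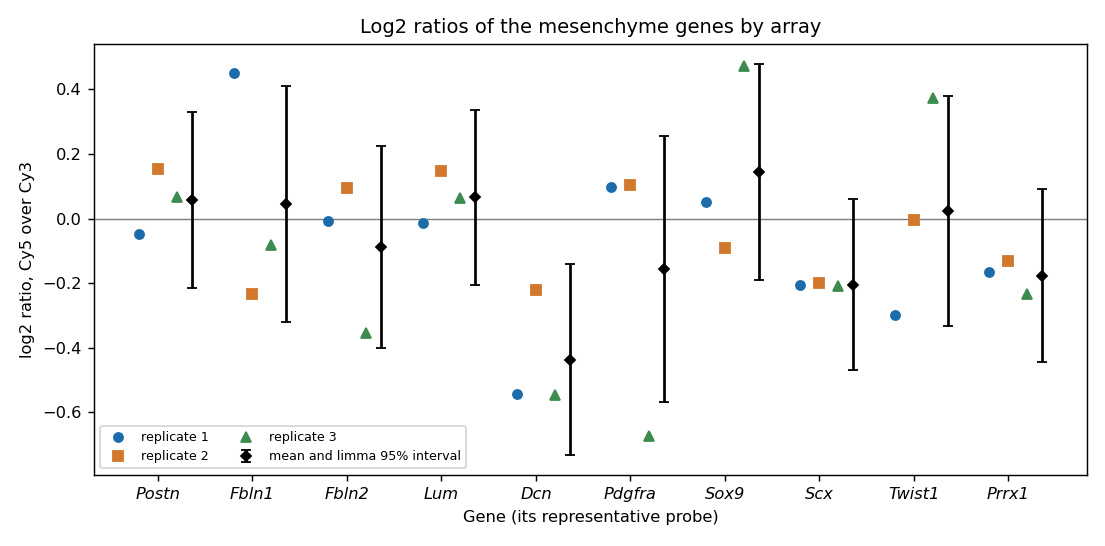
Log2 ratio of Cy5 (labelled Lrrc10-/-) over Cy3 (wild type) of the representative probe of each gene. Coloured symbols are the 3 arrays, and black diamonds with bars are the mean and limma's 95% interval. Dcn, Scx and Prrx1 lie below 0 on all arrays, and only the interval of Dcn leaves out 0.

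Pdgfra encodes the receptor through which platelet-derived growth factors act on mesenchymal cells. Its representative probe, A_51_P345649 (chr5:75593888-75593947), was printed in 10 spots on each array. Mean signals were 1377, 912 and 1256 (Cy5) against 1297, 846 and 2205 (Cy3), and the log2 ratios were 0.10, 0.11 and -0.67. Replicate 3 stood apart. There the 10 spots lay between -0.71 and -0.62, with an SD of 0.03 between spots, so the low value was not that of 1 spot. On replicates 1 and 2 the SD between spots was 0.19 and 0.10. The mean over arrays was -0.16 ± 0.45 (SD, n = 3), the widest spread of the 10 genes, with an adjusted p of 0.74 by limma, and it was 0.10 without replicate 3. The coding probe of Pdgfra shown above, 34.3 kb upstream, had log2 ratios of 0.12, 0.09 and 0.01. It was dim on replicate 3, with signals of 32.7 in Cy5 and 40.8 in Cy3. By the software's ratios it was at 0.06, -0.29 and -0.32, and the representative probe at 0.08, 0.11 and -0.81. How far the 2 probes part on replicate 3 thus depends on the processing.

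Sox9, a DNA-binding factor of valve and cartilage precursors, was read by 3 probes, and the mean of each was close to 0. The brightest, A_52_P577484 (chr11:112647008-112647067), had signals of 474, 422 and 1710 (Cy5) against 524, 474 and 1162 (Cy3), and log2 ratios of 0.05, -0.09 and 0.47. The probe printed in 10 spots, A_52_P214630 (chr11:112648809-112648868), gave -0.02, 0.19 and 0.08, with an SD between spots of 0.26, 0.20 and 0.07. The intron-crossing probe gave 0.08, 0.10 and -0.01. The high value of the brightest probe on replicate 3 was thus not seen with the probe printed in 10 spots. The intron-crossing probe was dim on that array, with signals of 21.7 in Cy5 and 25.4 in Cy3, and the software's ratio there was -0.23. Its Cy5 signal was well above background on 2 of 3 arrays. The means were 0.14 ± 0.29, 0.08 ± 0.11 and 0.06 ± 0.06 (SD, n = 3), and the lowest adjusted p of the Sox9 probes was 0.71 by limma.

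Scleraxis gave the most even readings. Scx (A_51_P380432, chr15:76289708-76289767) had signals of 1253, 1618 and 1937 (Cy5) against 1314, 1738 and 2192 (Cy3), and log2 ratios of -0.21, -0.20 and -0.21. The SD of 0.005 between arrays was the smallest of the 10 genes, whose median SD was 0.21, beside 0.20 over all probes tested. Limma shrinks such a small spread towards that of all probes, and the mean of -0.21 (0.867-fold, interval from 0.722 to 1.04) had an adjusted p of 0.49. The software's ratios for Scx were -0.07, -0.10 and -0.18.

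Twist1, a basic helix-loop-helix (bHLH) factor of cushion mesenchyme, pointed in different directions on the arrays. Its probe (A_52_P20906, chr12:34644411-34644470) had signals of 369, 319 and 981 (Cy5) against 448, 324 and 688 (Cy3). The log2 ratios were -0.30, 0.00 and 0.37, averaging 0.02 ± 0.34 (SD, n = 3), with an adjusted p of 0.96 by limma. Replicate 1 was low and replicate 3 high, with replicate 2 at 0. Twist1 and Sox9 were highest on replicate 3, the array on which Pdgfra and Fbln2 were lowest.

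**Figure D3:**
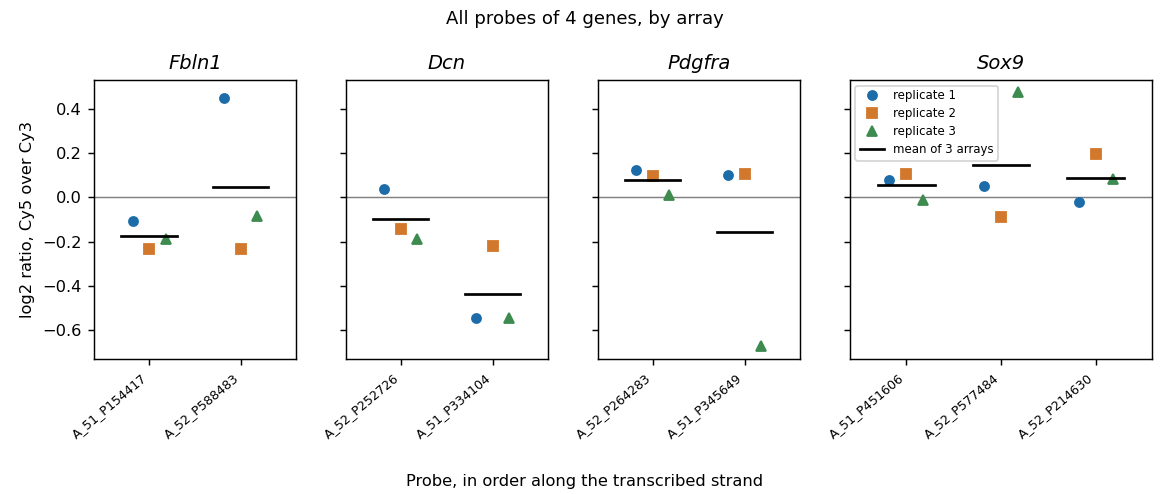
Log2 ratio of Cy5 over Cy3 for all probes of Fbln1, Dcn, Pdgfra and Sox9, in order along the transcribed strand. Symbols are the 3 arrays and black bars the means. Probes of 1 gene part on single arrays: Fbln1 on replicate 1 (0.45 against -0.11), Pdgfra on replicate 3 (-0.67 against 0.01) and Sox9 on replicate 3 (0.47 against 0.08 and -0.01). The values of 0.01 for Pdgfra and -0.01 for Sox9 come from probes that were dim on that array.

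Prrx1, a paired-related homeobox factor of limb, face and valve mesenchyme, was read by 6 probes. Of these 5 were tested, and their mean log2 ratios differed in direction. The representative probe, at the end of a coding frame (A_51_P209771, transcript variant 2), had signals of 222, 428 and 690 (Cy5) against 222, 437 and 858 (Cy3), and log2 ratios of -0.17, -0.13 and -0.23. The homeobox probe, A_52_P483713 (transcript variant 3), lay the other way, at 0.08, 0.31 and 0.28. Both were of 1 sign on 3 of 3 arrays. By the software's ratios the representative probe was near 0 on replicates 1 and 2, at -0.003, -0.03 and -0.31. The homeobox probe was at 0.04, 0.25 and 0.39 by them. The means were -0.18 ± 0.05 and 0.22 ± 0.13 (SD, n = 3), with adjusted p-values of 0.55 and 0.47 by limma, and the difference between the probes was not tested.

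The remaining Prrx1 probes read other parts of the locus. A_51_P209778, which is coding, gave -0.06, 0.00 and 0.22. By the software's ratios it was at 0.16, 0.07 and 0.43, with a mean of 0.22. The most downstream probe, A_52_P335587 (chr1:165177177-165177236), gave -0.29, -0.04 and 0.03. It was dim, with Cy5 signals of 87.9, 44.3 and 22.0, and its Cy5 signal was well above background on 2 of 3 arrays. The most upstream one, A_52_P480842 (chr1:165213239-165213298), for a neonatal head clone, was well above background on no array in either channel and was not tested.

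The clone probe A_51_P262972 gave the highest values of all 20 probes. Its signals were 414, 267 and 820 (Cy5) against 196, 169 and 278 (Cy3), and its log2 ratios were 0.65, 0.47 and 0.92. All arrays were above 0, at a mean of 0.68 ± 0.23 (SD, n = 3), or 1.60-fold with an interval from 1.29 to 1.98, with limma's p of 0.0012 before and an adjusted p of 0.067 after Benjamini-Hochberg adjustment. Among the 15 alternatives run, it passed the threshold only without replicate 3, and the adjusted p ran from 0.028 to 0.52. It lies on the same strand as the others, 4769 bases downstream of the nearest coding probe and 4821 upstream of the next. None of the 3 reading frames of its strand is free of stop codons. The same holds for the representative Prrx1 probe, which runs past its stop codon, while the Dcn clone probe has 1 frame free of them. Its transcript was described from a clone of adult hypothalamus, and no gene model of mm9 was used here to say whether the stretch is exonic or intronic.

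**Figure D4:**
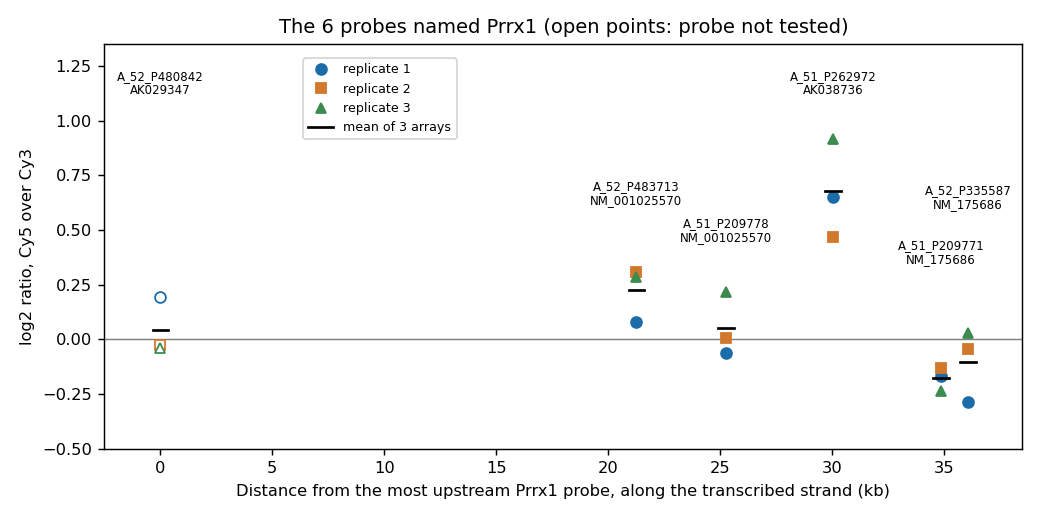
Log2 ratio of Cy5 over Cy3 (vertical) of the 6 probes named Prrx1, by distance in kb along the transcribed strand from the most upstream probe (horizontal). Symbols are the 3 arrays, black bars the means, and open symbols the probe that was not tested. The clone probe AK038736 lies above all others on every array, and its neighbours on both sides have means of 0.05 and -0.18. By the software's ratios, not drawn, these neighbours have means of 0.22 and -0.12.

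The study's kind of selection was applied too: a software log ratio of at least 1.2-fold in 1 direction on all arrays, with a processed signal of at least 20 in both channels and a software p under 0.05 on each array. Of the 18 member probes bright enough, 1 passed, and it was higher. This was the Prrx1 clone probe, with software log2 ratios of 1.08, 0.66 and 1.56. Of all 27358 probes bright enough, 2.27% passed in either direction and 2.14% were higher. The single probe cannot be set apart from that background.

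Family relatives of the 10 genes and other genes of cushions, matrix and fibroblasts were taken from a list of 105, of which 100 were tested with 1 probe each. The list includes relatives and signalling genes that are not confined to valve and interstitial mesenchyme, so its counts are not those of 1 tissue. By limma, 2 were higher at an adjusted p under 0.05, beside 1.66% of all named genes, and 0 were lower, beside 0.00609%. Before adjustment, p was under 0.05 for 5 higher and 10 lower genes, beside 10.4% and 4.68% of named genes. The median of the 100 was -0.03 and 56 of them had a mean below 0, against 46.1% of all named genes. The genes that passed were Vcan, which encodes versican, the large proteoglycan of cushion matrix, and Tcf4, an E-protein that pairs with bHLH factors of the Twist kind.

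For both, only 1 of the gene's probes was high. The called Vcan probe (A_52_P168953) had log2 ratios of 0.68, 1.81 and 1.76, with a mean of 1.42 ± 0.63 (SD, n = 3; limma, adjusted p = 0.033). Other Vcan probes that were tested had means of -0.19 (A_52_P251703) and 0.00 (A_52_P1044655). The latter was dim, with Cy5 signals of 67.8, 77.8 and 8.14. The called Tcf4 probe (A_52_P424847) had log2 ratios of 0.71, 1.38 and 0.84, with a mean of 0.98 ± 0.36 (SD, n = 3; limma, adjusted p = 0.033), while its other tested probes had means of -0.10 (A_51_P265137) and -0.04 (A_52_P521101). A value for these genes therefore belongs to a probe and not to all transcripts of the gene. Leaving out replicate 1 or replicate 2 ended both calls, with adjusted p-values of 0.069 and 0.24 for Vcan and of 0.16 and 0.22 for Tcf4.

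The nearest relatives of the 10 genes are given by family, as mean log2 ratios over 3 arrays, and apart from Tcf4 and Vcan none of the genes in these families passed the test. In the proteoglycan family of Lum and Dcn, 8 of 10 genes were tested and the means ran from -0.18 (Prelp) to 0.26 (Optc), with biglycan (Bgn) at -0.02 ± 0.26. In the fibulin family all 5 genes were tested, and 4 had a mean below 0. Efemp2, which encodes fibulin-4 of elastic fibres, was at -0.58 ± 0.14 (adjusted p = 0.088, limma), Fbln5 at -0.25 ± 0.94, and Hmcn1, hemicentin, highest at 0.48 ± 0.64 with a second probe at -0.13. Tgfbi, the relative of periostin, was at -0.25 ± 0.10 (limma, adjusted p = 0.42).

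Of the PDGF ligands and receptors all 6 were tested, from -0.08 (Pdgfd, a ligand) to 0.38 (Pdgfrl, a receptor-like protein), with Pdgfrb, the receptor of mural cells, at 0.13 ± 0.33. Twist2, the closest relative of Twist1, was at 0.17 ± 0.07 and the E-protein Tcf3, lowest of the bHLH factors, at -0.29 ± 0.07. Of the Sox factors 4 of 6 were tested, from -0.04 (Sox4) to 0.19 (Sox10, a neural crest factor). Sox8 was too dim to test. Prrx2, the closest relative of Prrx1, was the lowest of 5 homeobox factors at -0.28 ± 0.21, and Meox2 the highest at 0.24 ± 0.08, although its second probe was at -0.17 and below 0 on 3 of 3 arrays.

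In the list of 25 genes of the cushion transition, 17 had a mean below 0 and none passed. Their means ran from -0.53 ± 0.13 for Bmp7, a signal of the BMP family (limma, adjusted p = 0.12), to 0.62 ± 0.47 for Gata4, a heart transcription factor, whose second probe had a mean of -0.17. Of 30 matrix genes tested, 19 had a mean below 0, and the lowest was Col1a2, a chain of type I collagen, at -0.51 ± 0.18 (limma, adjusted p = 0.15), with a probe that was saturated in Cy3 on replicate 3. Among 8 other fibroblast genes the means ran from -0.24 (Thy1, a surface protein, whose second probe was at 0.21) to 0.44 (Dpt, dermatopontin), and Dpt owed its mean to replicate 3, where it was 1.28 against 0.20 and -0.16.

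**Figure D5:**
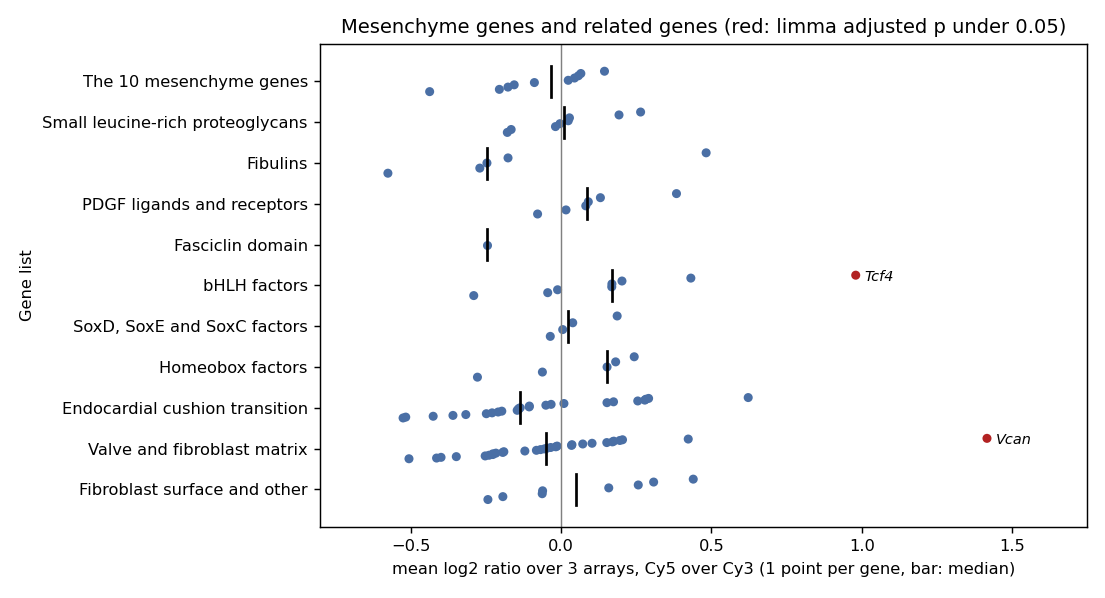
Mean log2 ratio of Cy5 over Cy3 over 3 arrays (horizontal) for the 10 mesenchyme genes and the 100 tested related genes, 1 point per gene, by list (vertical). Black bars are list medians, and red points have an adjusted p under 0.05 by limma. All 10 mesenchyme genes lie between -0.44 and 0.14, and only Tcf4 and Vcan are red.

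Processed signals of markers of other cells that a dissected heart can hold were summed by channel, because they could move with the 10 genes. The sums were not loess-normalized, unlike the means and medians of log2 ratios, and the brightest genes weigh most in them. Cardiomyocyte markers were bright, as heart tissue requires: all 12 were tested, 11 had a mean below 0, and their median was -0.21. Many were saturated in both channels, which hides any difference and leaves a ratio that does not measure the gene. Myh7, Tnnt2, Myl2, Myl3 and Nppa, so saturated on at least 2 arrays, all had a mean of -0.21. The median and part of the count below 0 thus come from saturated probes. The log2 ratio of summed cardiomyocyte signals was -0.40, -0.14 and -0.36 on replicates 1, 2 and 3. The saturated probes are part of these sums. For the 10 mesenchyme genes the summed ratio was 0.03, 0.08 and -0.27, and for 8 endothelial markers it was 0.01, 0.01 and -0.31. Both were lower on replicate 3. The loess medians were -0.03, -0.05 and -0.15 for the 10 genes and 0.03, 0.14 and -0.19 for the endothelial markers. On replicate 3 Dcn had the widest gap of the 10 genes, 31365 (Cy5) against 48612 (Cy3), in sums of 106462 and 128488. Epicardial markers (7 tested) gave -0.33, -0.34 and 0.20. Macrophage markers (6 tested) gave 0.12, -0.01 and 0.98, but the list was split. Of the 6 genes 4 had a mean below 0, and the list medians by array were -0.28, -0.15 and 0.41. Csf1r and Aif1 had means of 0.90 and 0.38. Smooth muscle markers (5 tested) gave -0.41, -0.14 and -0.36, where Acta2 was saturated in both channels on at least 2 arrays. The summed erythroid ratio (5 of 6 genes tested) was below 0 on every array, at -0.61, -0.44 and -0.45. In it Hba-a1 was saturated in both channels on at least 1 array. By loess-normalized ratios 4 of the 5 genes had a mean below 0, but Hbb-bh1 was above 0 on every array, at 0.05, 0.05 and 0.15. By the software's ratios the mean of Hbb-bh1 was -0.10. Skeletal muscle markers (7 of 8 tested) gave -0.22, -0.04 and -0.27, with Myh8 saturated in both channels on at least 2 arrays, neural crest and glial markers (3 of 5 tested) -0.12, 0.41 and -0.34, and proliferation genes (6 tested) 0.10, -0.05 and -0.15. Cartilage markers, which share Sox9, gave -0.11, -0.27 and -0.07 over 5 of 8 genes tested, and lung markers were too dim to test.

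Liver markers set replicate 2 apart. Over 3 of 6 genes tested, the summed signal was 21221 in Cy5 against 12136 in Cy3 on replicate 1, 1148 against 23593 on replicate 2 and 1436 against 761 on replicate 3, or log2 ratios of 0.81, -4.36 and 0.92. Without replicate 2 the median of the 10 mesenchyme genes was -0.09 and the mean of Dcn -0.54. No gene of any marker list passed the test. The part of the erythroid, macrophage, liver and other marker differences in the values of the 10 genes was not tested.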

How the data were processed

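Total RNA of E15.5 mouse hearts was compared on 3 two-colour arrays, each 1 replicate. The deposited files hold spot intensity values; per the file headers, Feature Extraction of Agilent produced them, version 9.1.3.1 for replicate 1 and 10.7.3.1 for the others, and processed signals were background-subtracted and dye-normalized by the authors' software. Version 9.5 stands in the submitters' processing notes for replicate 1. The scanner model differed in the same way, G2505B for replicate 1 and G2505C for the others. The deposited log10 ratio is that of processed Cy5 over Cy3, and the deposited p-value of a spot is the software's test of that array alone. The series table held these same ratios (largest difference 0), so its scale and direction are the software's.

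With limma 3.58.1 in R 4.3.3, mean signals were corrected by normexp on median local background (offset 50) and normalized by loess within arrays, with control spots at weight 0. The offset draws the ratios of dim probes towards 0. Non-uniform spots were left out and spots of 1 probe averaged. A probe was tested if well above background on all 3 arrays in at least 1 channel, the same one throughout. Its log2 ratios were tested against 0 (lmFit, eBayes, two-sided), with Benjamini-Hochberg adjustment over 28328 probes and 95% intervals from limma. The number of arrays limits the precision. The methods call the 3 pools biological replicates, so p-values measure the spread between pools and not between single hearts.

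Gene names are those of the files, updated by RefSeq accession (26933 of 27730 matched, GRCm38.p6 table). The tested probe of highest mean intensity represents a gene. Named are Lrrc10, the 10 genes with every probe, their nearest relatives, and of the related list those called and the highest and lowest of each family. The members, lists and tests were chosen with earlier results of these data known. The alternatives covered background correction, normalization, dim-probe filters, array weights, the methods' t-test, a trend with intensity, the software version as a block and leaving out each array. In that block software version and scanner model cannot be told apart.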

Additional observations from a re-analysis of the deposited data

How the results depend on the processing

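The count of 0 called probes of the 10 genes held under every alternative except leaving out replicate 3, with counts from 0 to 1, when the Prrx1 clone probe passed. Over all probes the count of 396 fell to 0 with the software's log ratios, the series table, scaling between arrays and the methods' t-test, to 145 when dim probes were kept, and to 1 both without background subtraction and with the block for software version. It ran from 1 to 1788 when 1 array was left out. The 2 calls of the related list fell to 1 with median centring, and to 0 with the software's ratios, the series table, no background subtraction, scaling between arrays, no filter on dim probes, the software version as a block and the methods' t-test. They ran from 0 to 7 when 1 array was left out, and without replicate 3 Efemp2, Hmcn1 and Gata4 passed too. The cause was not tested. The median of the 10 genes moved to -0.10 with the software's ratios and the series table and with median centring (-0.096), and ran from -0.14 to 0.012 with 1 array left out. The 1.2-fold rule passed 1 probe in every setting tried.

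Means that changed sign were all of genes that did not pass. With the software's ratios and the series table Fbln1 was at -0.091, Sox10 at -0.030 and Sox4 at 0.085. With median centring Fbln1 was at -0.017, Postn at -0.035, Lum at -0.012 and Twist1 at -0.038. With the block, Twist1 was at -0.057 and Pdgfd at 0.0050, and with array weights Twist1 was at -0.040. With 1 array left out, means ran from -0.16 to 0.18 for Fbln1, -0.18 to 0.044 for Fbln2, -0.29 to 0.10 for Pdgfra, -0.020 to 0.26 for Sox9, -0.15 to 0.19 for Twist1, -0.16 to 0.11 for Bgn, -0.67 to 0.26 for Fbln5, -0.24 to 0.047 for Pdgfd, -0.00026 to 0.32 for Pdgfrb and -0.062 to 0.010 for Sox4. Dcn, Scx, the representative Prrx1 probe and the Prrx1 clone probe kept their direction under all 15 alternatives, with means from -0.54 to -0.31, -0.27 to -0.12, -0.20 to -0.12 and 0.56 to 1.10. Of the 20 probes, 15 were well above background in both channels on all arrays.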
